A study of Mus musculus with 7 samples.

Results

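Bmp5, Rspo3, Gpx8, Cyp2f2, Cped1 and Tspan8 are low-level transcripts that lay at or near 0 counts in amygdala cells given a guide RNA against Nr2f2. They were chosen by their counts and fold changes between the 2 guides in these same libraries, and the fibroblast and meningeal genes Dcn, Col1a1, Lum and Slc6a13 were added for comparison. The 10 genes are 10 of the 35976 gene symbols in the count table, found by exact symbol. Because the contrast between the guides chose them, their differences between the guides are given below as a description and without a test. RNA-seq was made from cells of the amygdala of mice, all male and of the strain C57BL/6J. The amygdala received adeno-associated virus (AAV) delivering Cas9, driven by the neuronal hSyn promoter, and a guide against Nr2f2 (sgNr2f2, 3 libraries) or, as the control, against the Rosa locus (sgRosa, 4 libraries). Mice of both groups were restrained in tubes for 7 days, fear conditioned for 1 day and put through 3 days of extinction, and no library is from unstressed mice. The labels used here do not say how old the mice were or whether a library is 1 animal or a pool, so the spread between libraries may be partly technical. After papain digestion, neurons were enriched on magnetic columns, and hSyn restricts Cas9, but not the sequenced RNA, to neurons.

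The meninges are the membranes that cover the brain, and their inner layers, the arachnoid and the pia, are built by fibroblasts and by an epithelium-like arachnoid barrier layer. These fibroblasts secrete matrix, such as type I collagen and small leucine-rich proteoglycans, and signals to the neural tissue, among them bone morphogenetic proteins (BMPs). BMPs bind pairs of type I and type II receptors that act through SMAD proteins, and R-spondins strengthen Wnt signalling by holding the ubiquitin ligases Znrf3 and Rnf43 away from Wnt receptors. Dissection of the amygdala can bring pieces of meninges, of the nearby choroid plexus or of the ventricle wall with it.

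The start regions of the members with 0 counts in every sgNr2f2 library are shown because Nr2f2 encodes a nuclear receptor that binds repeats of the hexamer AGGTCA in DNA. The sequences run from 250 bases before to 50 bases after a RefSeq transcript start (GRCm38.p6, the mm10 assembly, each on the plus strand), and capitals mark AGGTCA on either strand. They are Cyp2f2 at chr7:27119705-27120004, Tspan8 at chr10:115817034-115817333, Bmp5 at chr9:75775115-75775414 and Cped1 at chr6:21985660-21985959.
Cyp2f2: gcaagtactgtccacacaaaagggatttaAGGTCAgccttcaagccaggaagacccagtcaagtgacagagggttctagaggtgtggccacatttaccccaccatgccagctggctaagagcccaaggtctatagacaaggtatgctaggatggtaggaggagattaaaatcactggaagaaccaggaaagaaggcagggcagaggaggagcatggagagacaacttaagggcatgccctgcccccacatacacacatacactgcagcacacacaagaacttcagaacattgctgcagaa
Tspan8: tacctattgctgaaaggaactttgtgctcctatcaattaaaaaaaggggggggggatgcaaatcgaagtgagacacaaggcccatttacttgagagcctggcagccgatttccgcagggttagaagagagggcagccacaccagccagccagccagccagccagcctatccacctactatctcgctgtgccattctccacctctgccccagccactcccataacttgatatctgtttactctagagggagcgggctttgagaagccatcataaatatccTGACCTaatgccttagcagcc
Bmp5: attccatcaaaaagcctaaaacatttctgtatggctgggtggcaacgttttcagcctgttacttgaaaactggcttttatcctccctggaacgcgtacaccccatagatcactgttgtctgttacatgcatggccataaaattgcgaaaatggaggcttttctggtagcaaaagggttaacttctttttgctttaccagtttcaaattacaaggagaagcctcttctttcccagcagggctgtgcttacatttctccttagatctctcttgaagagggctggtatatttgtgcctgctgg
Cped1: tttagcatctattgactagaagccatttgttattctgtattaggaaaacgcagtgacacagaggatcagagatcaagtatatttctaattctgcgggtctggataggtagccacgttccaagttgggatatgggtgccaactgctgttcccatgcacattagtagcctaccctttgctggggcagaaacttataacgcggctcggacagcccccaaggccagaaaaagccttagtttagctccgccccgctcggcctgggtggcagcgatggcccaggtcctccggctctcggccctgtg
Cyp2f2 held the hexamer in the forward direction, starting 221 bases before the start site, and Tspan8 held its reverse complement, TGACCT, starting at base 30 of the transcript. The windows of Bmp5 and Cped1 held none. Of the 10 genes, 6 had a window, with 8 windows in all, and 3 windows of 3 genes held the hexamer (Cyp2f2, Tspan8 and 1 of the 3 windows of Slc6a13). Among all 32851 windows from RefSeq, 16.3% held it. The repeat AGGTCANAGGTCA, searched on both strands and made of 2 of these hexamers, was in 0 of the 8 windows and in 0.0396% of all windows. A match is a description of the letters and does not show binding. Rspo3, Dcn, Col1a1 and Lum had no entry.

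Total counts ran from 16497269 to 20928677 in sgNr2f2 and from 6266897 to 19788953 in sgRosa, where replicate 4 was the shallowest. Genes with at least 1 count numbered 16364, 17572 and 17532 in sgNr2f2 and 19790, 19916, 18675 and 18644 in sgRosa. Every sgNr2f2 library thus had fewer genes with a count than every sgRosa library, the shallow replicate 4 included, so counts of 0 were more common in sgNr2f2 in general. Levels are given as CPM, counts per 1000000 counts of the library, on library sizes scaled by the trimmed mean of M-values (TMM). Nr2f2 itself had 196, 214 and 191 counts in sgNr2f2 and 422, 305, 166 and 96 in sgRosa, or 11.8 ± 0.224 CPM and 15.1 ± 3.76 CPM (SD, n = 3 and 4). The groups overlapped, with a log2 fold change of -0.36 (SE 0.37, edgeR quasi-likelihood adjusted p = 0.905). Oligodendrocyte transcripts were abundant in a preparation labelled as neurons: 9 markers summed to 165286 to 406735 CPM in sgNr2f2 and 22880.5 to 345224 CPM in sgRosa, and 10 neuron markers to 414.4 to 532.1 and 381.1 to 1327 CPM. In such mixed RNA, fewer cells of a type and less RNA per cell cannot be told apart.

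Bmp5 (chromosome 9, 75775365 to 75900316) encodes a secreted BMP. It had 0 counts in each of the 3 sgNr2f2 libraries and 10, 136, 14 and 1 counts in sgRosa replicates 1 to 4. Every sgRosa library had a count, but replicate 2 held 84.5% of them, and replicate 4 lay at the level of 1 read. In CPM the sgRosa values were 0.468, 7.35, 0.951 and 0.136, and 3 counts, the limit that a count of 0 allows, are worth 0.168 to 0.181 CPM in the sgNr2f2 libraries. The 0.136 CPM of sgRosa replicate 4 lay under that limit, so at this depth it cannot be told from the sgNr2f2 libraries. With the 3 sgNr2f2 libraries pooled and set at a floor of 3 counts in all, Bmp5 was at least 44.1-fold lower in sgNr2f2. With sgRosa replicate 2 left out this bound was 9.77-fold. These floors cover counting error only, not the spread between libraries.

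Rspo3 (chromosome 10, 29453106 to 29535867), the R-spondin gene among the members, had 7, 7 and 18 counts in sgNr2f2 and 90, 228, 30 and 26 in sgRosa. That is 0.423, 0.392 and 1.09 CPM in sgNr2f2, against 4.21, 12.3, 2.04 and 3.54 CPM in sgRosa. The groups did not overlap, and here all 4 sgRosa libraries lay well above the level of 1 read. The mean was 0.634 ± 0.393 CPM in sgNr2f2 (SD, n = 3) and 5.53 ± 4.62 CPM in sgRosa (SD, n = 4), a log2 fold change of -3.12 (SE 0.80). With sgRosa replicate 2 left out, the other 3 sgRosa libraries averaged 3.26 ± 1.114 CPM and the log2 fold change was -2.35. The ratio of pooled counts, sgNr2f2 over sgRosa, was 0.104, and 0.187 without that library (exact conditional 95% interval 0.123 to 0.275, counting error only).

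Gpx8 (chromosome 13, 113042757 to 113046430) encodes a glutathione peroxidase of the endoplasmic reticulum. It had 4, 3 and 8 counts in sgNr2f2 and 43, 234, 40 and 18 in sgRosa, or 0.242, 0.168 and 0.484 CPM against 2.01, 12.7, 2.72 and 2.45 CPM. Outside replicate 2 the sgRosa libraries lay close together, at 2.39 ± 0.355 CPM (SD, n = 3), and each was above every sgNr2f2 library. The log2 fold change was -4.03 (SE 0.92), and -2.98 without sgRosa replicate 2. The ratio of pooled counts was 0.0544, and 0.127 without that library (interval 0.0683 to 0.219).

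Cyp2f2 (chromosome 7, 27119955 to 27133660) encodes a cytochrome P450 best known in mouse from the airway and liver. It had 0 counts in all 3 sgNr2f2 libraries and 26, 104, 4 and 12 in sgRosa, or 1.22, 5.62, 0.272 and 1.63 CPM. The lowest of these, in sgRosa replicate 3, lay just above the sgNr2f2 limit of 0.181 CPM. Cyp2f2 was at least 40.0-fold lower in sgNr2f2 in the same terms as for Bmp5, and the bound was 16.4-fold with sgRosa replicate 2 left out.

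Cped1 (chromosome 6, 21985710 to 22256407), whose protein is little studied, and Tspan8 (chromosome 10, 115816817 to 115849893), which encodes a tetraspanin of the cell surface, were also at 0 in sgNr2f2. Cped1 had 18, 102, 8 and 1 counts in sgRosa, or 0.843, 5.52, 0.543 and 0.136 CPM. Tspan8 had 13, 100, 3 and 5 counts, or 0.609, 5.41, 0.204 and 0.681 CPM. For both, replicate 2 lay far above the other sgRosa libraries and held 79.1% of the sgRosa counts of Cped1 and 82.6% of those of Tspan8. The pooled counts were at least 35.4-fold lower in sgNr2f2 for Cped1 and at least 33.2-fold for Tspan8, and at least 10.6-fold and 8.21-fold without sgRosa replicate 2.

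The comparison genes did not all follow this pattern. Dcn (chromosome 10, 97479500 to 97518163), the gene of the collagen-binding proteoglycan decorin, had 64, 16 and 35 counts in sgNr2f2 and 17, 147, 67 and 12 in sgRosa. At 3.87, 0.896 and 2.12 CPM the sgNr2f2 libraries lay within the sgRosa range of 0.796, 7.95, 4.55 and 1.63 CPM. The log2 fold change of -0.71 (SE 0.82) was -0.02 without sgRosa replicate 2 and -1.31 without sgNr2f2 replicate 1. The ratio of pooled counts was 0.575 over all libraries and 1.02 without sgRosa replicate 2 (interval 0.772 to 1.35).

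Col1a1 (chromosome 11, 94936224 to 94953042) encodes a chain of type I collagen. It had 17, 0 and 43 counts in sgNr2f2 and 35, 41, 37 and 7 in sgRosa, or 1.03, 0 and 2.60 CPM against 1.64, 2.22, 2.51 and 0.953 CPM. The highest of the 7 libraries was sgNr2f2 replicate 3, and the groups overlapped. Its log2 fold change of -0.61 (SE 1.07) was -0.02 without sgNr2f2 replicate 2, the library with 0 counts, and -1.83 without sgNr2f2 replicate 3, the highest. It was -2.19 by limma-voom and -1.56 with a replicate block.

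Lum (chromosome 10, 97565501 to 97572703), the gene of the proteoglycan lumican, had 0 counts in the sgNr2f2 libraries and only 4, 6, 3 and 1 in sgRosa. This gene was barely read in any library, and its pooled counts were at least 3.84-fold lower in sgNr2f2 by the same floor. Slc6a13 (chromosome 6, 121300288 to 121337721), which encodes the GABA and taurine transporter GAT2 and is known from the meninges, had 0, 0 and 3 counts in sgNr2f2 and 10, 26, 6 and 11 in sgRosa. In CPM these were 0, 0 and 0.181 against 0.468, 1.41, 0.408 and 1.497, so sgRosa replicate 4 and not replicate 2 was highest. The ratio of pooled counts was 0.0688 (interval 0.0138 to 0.212), and 0.0947 without sgRosa replicate 2 (0.0184 to 0.308).

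Across the 10 genes the mean was lower in sgNr2f2 for 10, and for 8 every sgNr2f2 library lay below every sgRosa library, against 3.9% of the 14412 genes tested (4.41% lay the other way), a share from which nothing is read because this contrast chose the genes. For Bmp5, Cped1 and Lum this order rests on 1 read in sgRosa replicate 4, under the limit that 0 counts allow in the sgNr2f2 libraries. In leave-outs that were not planned, the count was 8 without sgRosa replicate 2 (6.24% of the tested genes) and 8 without replicate 4 (9.01%). edgeR's filter on low counts kept 8 of the 10 and removed Cped1 and Lum. The counts, CPM and pooled ratios of all 10 above come from the unfiltered counts, and the log2 fold changes from fits to the filtered genes. Summed over the 10 genes the level was 5.56, 1.46 and 6.47 CPM in sgNr2f2 and 12.5, 60.8, 14.4 and 12.8 CPM in sgRosa.

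**Figure D1:**
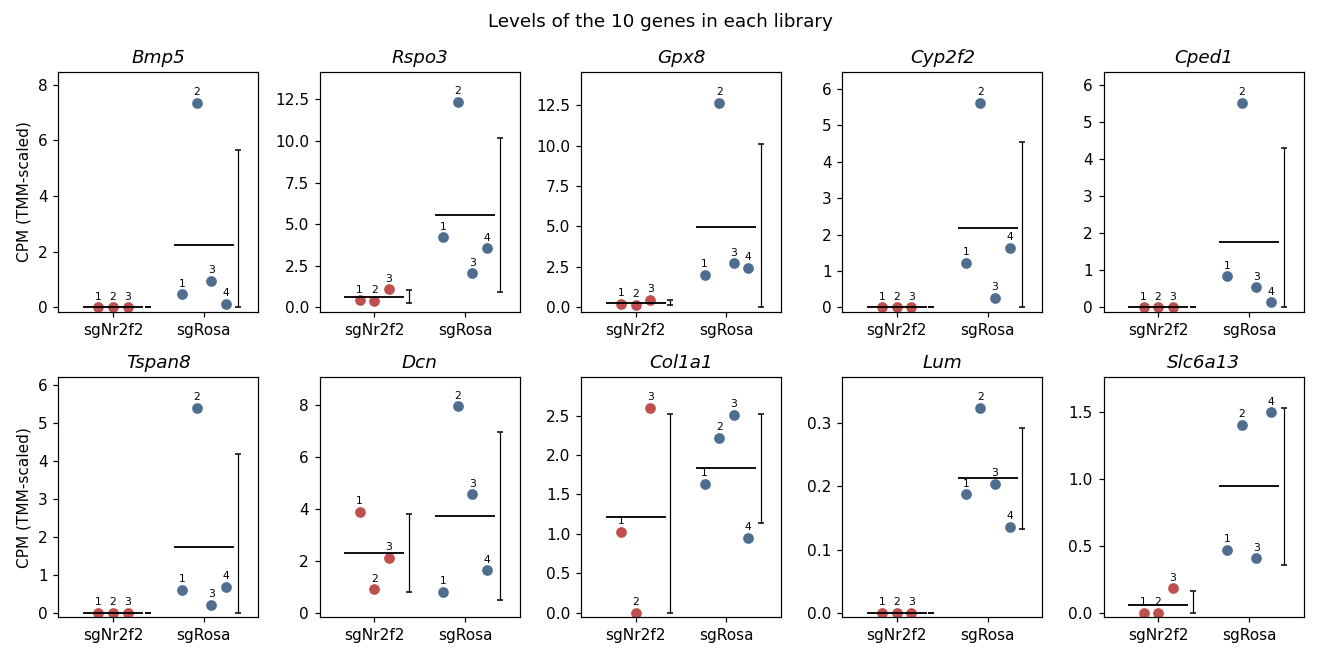
Levels of the 10 genes in CPM on TMM-scaled library sizes, on linear axes that differ between panels. Each point is a library, numbered by replicate, with sgNr2f2 on the left and sgRosa on the right of each panel. Horizontal lines are means and bars are 1 SD (n = 3 and 4), with the lower end drawn no lower than 0. sgRosa replicate 2 is the highest point for 8 genes, sgRosa replicate 4 for Slc6a13 and sgNr2f2 replicate 3 for Col1a1.

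The members differed in how their reads were spread over the 7 libraries. The profile of a gene is its CPM in each library as a percent of its sum over all 7, and the likeness of 2 genes is the sum over libraries of the smaller percentage, so that 100 would mean equal profiles. Bmp5, Cped1 and Tspan8 were most alike, at 92.9% for Bmp5 with Cped1 and 92.1% for Cped1 with Tspan8. Within the 6 low-level members the 15 pairs ran from 66.6 to 92.9%. Their 12 pairs with Dcn or Col1a1 ran from 37.7 to 65.0%. Their pairs with Lum or Slc6a13 ran from 52.6 to 78.9%, which overlaps the range within the 6. All these values share the 7 libraries and are much affected by replicate 2, which held over 50% of the summed sgRosa CPM for 7 of the 10 genes, against 2.48% of the tested genes and 3.08% of genes with 100 to 1000 sgRosa counts.

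**Figure D2:**
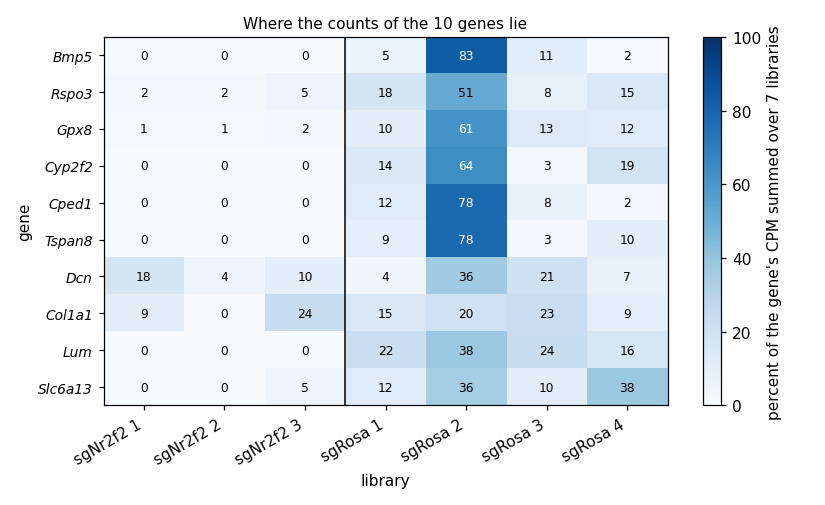
Profiles of the 10 genes: each cell gives the CPM of a gene in a library as a percent of its sum over the 7 libraries, sgNr2f2 left of the line and sgRosa right of it. Bmp5, Cped1 and Tspan8 lie mainly in sgRosa replicate 2, while Dcn and Col1a1 are spread over libraries of both groups.

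Outside the members, 12454 named genes with at least 100 counts were compared with 4 of them. The most like Bmp5 were Tnfrsf11b, which encodes the decoy receptor osteoprotegerin, at 94.0%, the ependymal marker Tmem212 at 93.8%, the connexin gene Gjb2 at 93.1%, the ependymal marker Ccdc153 at 92.0% and the matrix gene Efemp1 at 91.8%. The median over all genes compared was 30.8%. For Rspo3 they were the glypican gene Gpc3 at 92.8%, then Igfbp6, an insulin-like growth factor binding protein gene, Hdx, Lrriq1 and the sodium channel gene Scn7a at 87.8% (median over genes 53.3%). For Gpx8 they were Pdpn, which encodes the membrane glycoprotein podoplanin, at 95.1%, then Gas1, Lrrc48, Cdhr4 and the type I collagen gene Col1a2 at 88.6% (median 47.9%). For Cyp2f2 they were the type VI collagen gene Col6a2 at 90.3%, then Dapl1, Pdpn, Lrriq1 and Igfbp6 at 85.5% (median 40.5%).

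Genes at 0 in every sgNr2f2 library were counted over the whole table as a description. Of 12502 genes with at least 100 counts in sgRosa, 9 had 0 counts in all 3 sgNr2f2 libraries (0.072%), and of the 2027 genes with 100 to 250 counts, 6 (0.296%). The members Bmp5, Cyp2f2, Cped1 and Tspan8 were 4 of the 9, and since they were chosen for being near 0 in sgNr2f2, nothing is read from that. They reach 100 counts through sgRosa replicate 2, and without it had 25, 42, 27 and 21 counts in sgRosa. The other 5, named after their values were seen, were the connexin gene Gjb2 (425 counts in sgRosa), the E-cadherin gene Cdh1 (414), the anion exchanger gene Slc26a7 (357), the adhesion gene Mpzl2 (208) and the ciliary adenylate kinase gene Ak7 (128). In each of the 9, sgRosa replicate 2 was the highest library and held over 50% of the summed sgRosa CPM, from 64.3% for Cyp2f2 to 93.4% for Mpzl2. Of 11614 genes with at least 100 counts in sgNr2f2, 0 had no count in all 4 sgRosa libraries. The reverse count is over 3 libraries against 4, so the numbers are not on equal terms. Each sgNr2f2 library also had fewer genes with a count than each sgRosa library.

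Most markers of meningeal fibroblasts and of the arachnoid barrier moved with the members in sgRosa replicate 2. Of 32 fibroblast markers outside the members, 21 had their highest level of the 7 libraries there, and of 9 arachnoid barrier markers 6 did, against 14.3% of the 24326 genes with a count. Gjb2, a connexin of meningeal cells, had 0, 0 and 0 CPM in sgNr2f2 and 2.29, 19.4, 1.22 and 0 CPM in sgRosa. Slc47a1, a transporter of organic cations found in leptomeninges, had 0, 0 and 0.484 CPM and 4.26, 42.9, 1.77 and 0 CPM. Cdh1, which joins barrier cells, had 0, 0 and 0 CPM and 1.22, 20.8, 0.0679 and 0.272 CPM. These 3 markers were at or near 0 in sgNr2f2 and highest in sgRosa replicate 2, as were Bmp5, Cyp2f2, Cped1, Tspan8 and Lum. Lum was barely read, at no more than 0.324 CPM in any library. Dcn and Col1a1 did not share this pattern. Slc6a13 was near 0 in sgNr2f2, with 0, 0 and 3 counts, but highest in sgRosa replicate 4. The 3 were picked from the lists after their values were seen, and other markers did not follow. Emp1 lay at 27.9 ± 3.26 CPM in sgNr2f2 and 14.5 ± 8.24 CPM in sgRosa, and Bicc1 at 4.78 ± 5.35 and 2.59 ± 2.03 CPM. Of 24 tested fibroblast markers, 6 had a log2 fold change above 0 and 18 below.

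The whole fibroblast list summed to 287.6 to 558.6 CPM in sgNr2f2 and 216.1 to 531.9 CPM in sgRosa, and its most abundant gene was Slc22a8, an organic anion transporter that brain endothelium also expresses. Without it, a choice made after the values were seen, the remaining 31 markers summed to 113.6, 92.2 and 87.6 CPM in sgNr2f2 and 111.5, 384.3, 130.1 and 96.1 CPM in sgRosa. Outside replicate 2 the sgRosa sums overlapped those of sgNr2f2. The arachnoid barrier list summed to 12.2 to 36.7 CPM in sgNr2f2 and 25.6 to 67.9 CPM in sgRosa. Markers at 0 in every sgNr2f2 library were Slc22a6, Foxd1, Twist1, Gjb2, Ranbp3l and Aox3 among fibroblast markers and Cdh1 among barrier markers. Of the 41 markers of both lists, 12, 15 and 11 had 0 counts in sgNr2f2 replicates 1 to 3 and 2, 0, 2 and 9 in sgRosa replicates 1 to 4.

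**Figure D3:**
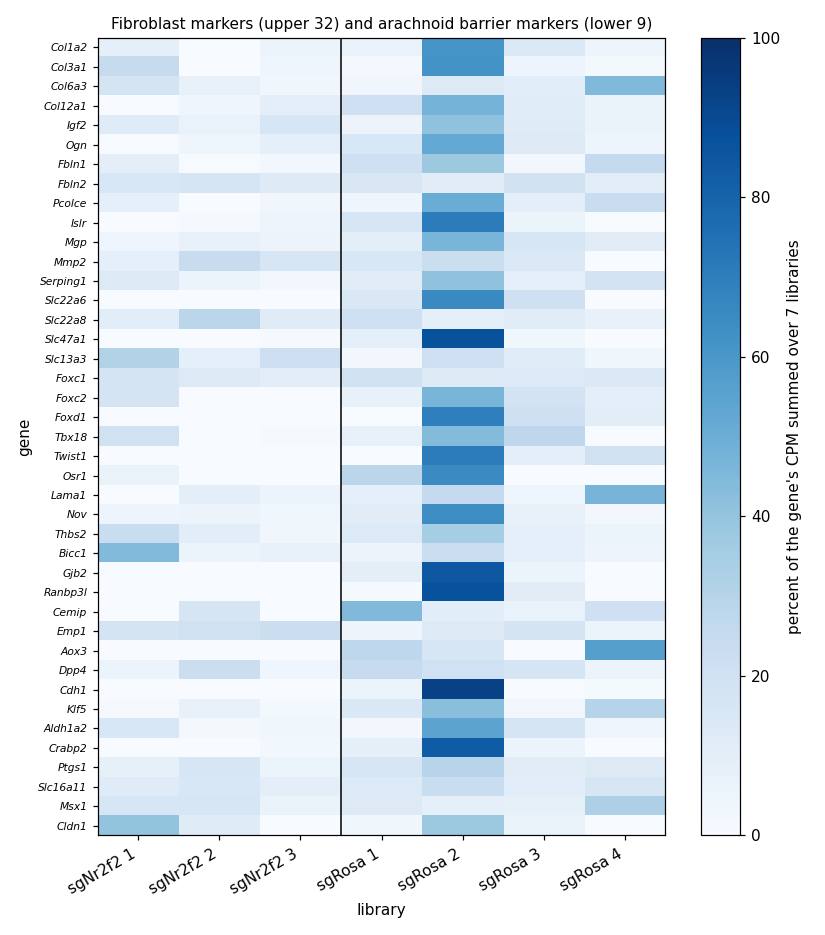
Profiles of 32 fibroblast markers and 9 arachnoid barrier markers, each cell giving CPM as a percent of the sum of that marker over the 7 libraries, sgNr2f2 left of the line and sgRosa right of it. In 27 of the 41 rows the highest value is in sgRosa replicate 2. Slc22a6, Foxd1, Twist1, Gjb2, Ranbp3l, Aox3 and Cdh1 are at 0 in every sgNr2f2 library.

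By edgeR, 0 of the 24 tested fibroblast markers and 0 of the 6 tested barrier markers passed the adjusted threshold of 0.05 in either direction, as did 0 of all 14412 genes (0%). At an unadjusted p under 0.05 these were 7 and 1 lower and 0 higher, against 2.82% lower and 2.18% higher of all genes. DESeq2 called 2 genes higher and 5 lower in the whole table and limma-voom 0. The median log2 fold change of the fibroblast markers was -1.67 (18 below 0 and 6 above) and that of all tested genes -0.11 (56.2% below 0 and 43.8% above). The fibroblast median was -0.69 without sgRosa replicate 2. Other marker lists had negative medians too, at -1.19 for pericytes and smooth muscle (10 of 10 below 0), -1.22 for ependymal cells (4 of 5) and -2.64 for erythroid cells (5 of 5). Of the 32 markers, only Mgp, which encodes the mineralization inhibitor matrix Gla protein, was lower in every sgNr2f2 library (8.04, 14.2 and 11.3 CPM) than in every sgRosa library (20.3, 93.5, 31.5 and 22.2 CPM), against 3.9% of all tested genes. Without sgRosa replicate 2 the count was again 1 of the 32, against 6.24%. Without sgRosa replicate 4 it was 9 of the 32, among them Ogn, Islr, Nov, Slc47a1 and Gjb2, against 9.01% of all tested genes. These leave-outs were not planned. Only 24 of the 32 passed the low-count filter, while the shares are over genes that all passed it, so the sets are not alike.

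Several members were read in sgRosa replicate 4, where the fibroblast sum was the lowest of the 4 sgRosa libraries and the depth was lowest too. In that library Gjb2, Slc47a1 and Crabp2, a retinoic acid binding protein gene on the arachnoid list, had 0 counts, which allows up to 0.408 CPM each. They were 3 of 9 markers at 0 there among the 41, and the other 32 were read. Mgp had 22.2 CPM in it and the barrier marker Msx1 22.05 CPM, its highest level of the 7 libraries. The arachnoid barrier sum was 37.97 CPM in sgRosa replicate 4, of which Msx1 alone made up 22.05 CPM, against 23.3, 36.7 and 12.2 CPM in the sgNr2f2 libraries. The fibroblast sum without Slc22a8 was 96.1 CPM in it, within the 87.6 to 113.6 CPM of sgNr2f2. With Slc22a8 it was 216.1 CPM, below the 287.6 to 558.6 CPM of sgNr2f2. Rspo3 had 3.54 CPM there, Gpx8 2.45 CPM, Cyp2f2 1.63 CPM and Slc6a13 1.497 CPM, above every sgNr2f2 library in each case. Bmp5, Cped1 and Lum had 1 count each in it. In sgRosa replicates 1 and 3, where Gjb2 had 49 and 18 counts, Rspo3 had 90 and 30 and Bmp5 10 and 14. The part of meningeal tissue in the members' values was not tested beyond these values.

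Choroid plexus RNA was read in libraries of both groups. Choroid plexus markers summed to 566.6, 124.8 and 68.4 CPM in sgNr2f2 and 26.1, 973.9, 14.9 and 102.5 CPM in sgRosa. Ttr, which encodes the choroid plexus carrier protein transthyretin, had 482.0 CPM in sgNr2f2 replicate 1 and 858.7 CPM in sgRosa replicate 2. In sgNr2f2 replicate 1 Bmp5, Cyp2f2, Cped1, Tspan8, Gjb2, Slc47a1 and Cdh1 were at 0. In the same library Dcn had 3.87 CPM, the type III collagen gene Col3a1 1.69 CPM and Bicc1 10.9 CPM. Col3a1 and Bicc1 were picked after their values were seen. Of the 41 fibroblast and arachnoid barrier markers, 12 had 0 counts in that library, Col12a1 and Foxd1 among them. Of 13 choroid plexus markers 9 and of 9 ependymal markers 8 were highest in sgRosa replicate 2. The ependymal sum, mostly the lipid transfer gene Pltp, was 299.3 to 624.2 CPM in sgNr2f2 and 295.9 to 2052 CPM in sgRosa. Border macrophage markers summed to 12.8 to 23.1 and 9.65 to 33.9 CPM, with F13a1 and Cd209f at 0 in sgNr2f2. Pericyte and smooth muscle markers summed to 89.2 to 278.4 and 130.7 to 437.6 CPM, with Abcc9 at 0 in sgNr2f2. Endothelial markers summed to 4962 to 13306 and 4476 to 9398 CPM, astrocyte markers to 971.1 to 1562 and 940.7 to 1774 CPM, and erythroid markers to 1050.01 to 1462 and 1047 to 31550.2 CPM, the last highest in sgRosa replicate 4. The part of these cell types in the members' values was not tested.

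**Figure D4:**
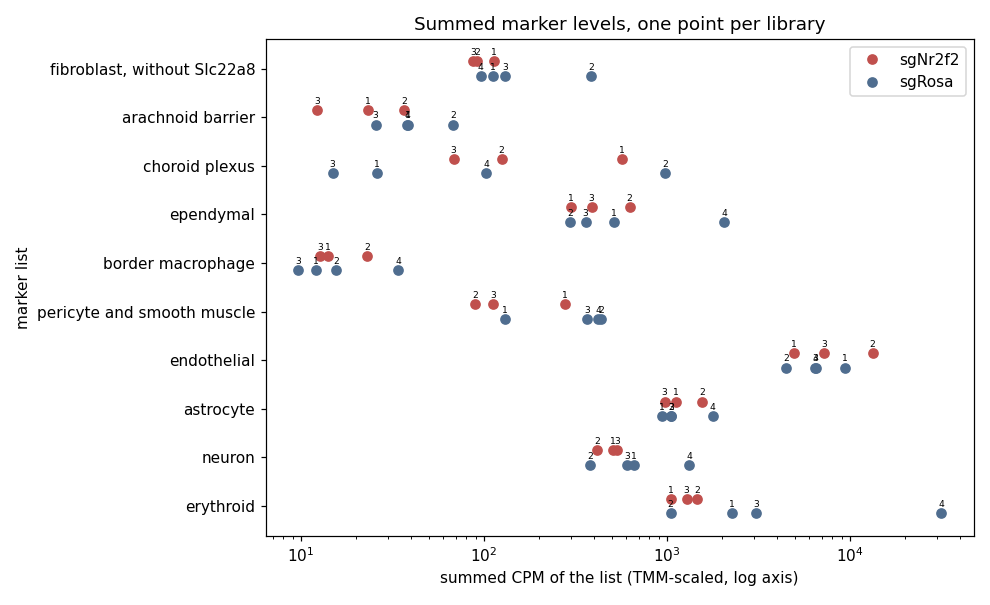
Summed CPM of marker lists on a log axis, 1 point per library, numbered by replicate, with sgNr2f2 above sgRosa in each row. sgRosa replicate 2 stands apart in the fibroblast row (384.3 CPM), which leaves out Slc22a8 by a choice made after the values were seen. With Slc22a8 it had 531.9 CPM, below the 558.6 CPM of sgNr2f2 replicate 2. It is the highest in the arachnoid barrier and choroid plexus rows, where sgNr2f2 replicate 1 is second at 566.6 CPM for choroid plexus.

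In the families around the 2 signalling members, 0 genes passed the adjusted threshold of edgeR in each list below. Before adjustment, p was under 0.05 for 2 higher and 3 lower genes over the 4 BMP lists, and 1 higher and 0 lower over the R-spondin and Wnt lists. Among 14 other BMP and GDF ligand genes 7 were tested, 4 below 0 and 3 above on the log2 scale, with a median of -0.53. Bmp6 and Bmp7, the nearest relatives of Bmp5, lay at 1.41 ± 1.14 and 0.402 ± 0.313 CPM in sgNr2f2 (n = 3) and at 0.803 ± 0.863 and 1.5999 ± 1.615 CPM in sgRosa (n = 4), and both overlapped between groups. Bmp4, another BMP ligand, had 1.03, 0.616 and 0.423 CPM in sgNr2f2 and 5.24, 4.43, 0.543 and 4.63 CPM in sgRosa, and did not pass (log2 fold change -2.42, SE 0.82, edgeR adjusted p = 0.868). Bmp1, a procollagen proteinase despite its name, Bmp2 and Gdf10 had log2 fold changes of 0.28, 0.44 and -2.82.

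The medians of the BMP receptors, inhibitors and targets lay near that of all genes, while single genes spread widely. The 11 tested receptor genes had a median log2 fold change of -0.05, with Eng, an endothelial co-receptor, at 354.1 ± 135.9 CPM in sgNr2f2 and 214.2 ± 62.3 CPM in sgRosa. Acvrl1, Bmpr2 and Rgmb had log2 fold changes of 0.23, -0.07 and -0.39, and the lowest of the list was Bmpr1b, a type I receptor gene, at -1.61 (SE 1.34). The median of the 11 tested inhibitors was -0.23, and Nbl1, Twsg1, Smad7 and Fstl1 lay between -0.29 and 0.63. The secreted BMP antagonists Nog and Chrd had -1.88 (SE 0.96) and -1.36 (SE 1.32). Of the list, the inhibitory SMAD genes Smad6 and Smad7 were higher in every sgNr2f2 library than in every sgRosa library, against 4.41% of all tested genes. Smad6 had 5.99, 11.98 and 15.2 CPM in sgNr2f2 and 3.98, 3.57, 3.67 and 0 CPM in sgRosa. Smad7 had 25.5, 23.01 and 32.6 CPM in sgNr2f2 and 13.02, 20.5, 19.97 and 16.3 CPM in sgRosa, and neither passed (edgeR adjusted p = 0.868 for both). The 9 tested transducers and targets had a median of 0.11, and the direct BMP target Id1 lay at 538.2 ± 253.2 and 588.0 ± 210.9 CPM, Id3 at 223.4 ± 86.9 and 260.1 ± 104.9 CPM, and Id2 at 13.3 ± 7.23 and 29.2 ± 9.04 CPM. For Id2 the log2 fold change was -1.13 (SE 0.47, edgeR adjusted p = 0.868), so it did not pass. Hey1 and Smad5 had log2 fold changes of 0.72 and 0.11.

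Among the other R-spondins and their receptors the 5 tested genes were all below 0, with a median of -0.69. Rspo1 lay at 0.539 ± 0.415 CPM in sgNr2f2 and 1.42 ± 1.42 CPM in sgRosa, and Rspo2 at 0.222 ± 0.333 and 0.555 ± 0.304 CPM. The ligase gene Znrf3 lay at 15.6 ± 1.67 and 20.5 ± 10.9 CPM and its relative Rnf43 at 0.823 ± 0.617 and 1.22 ± 1.03 CPM, and the receptor genes Lgr4 and Lgr5 had log2 fold changes of -0.69 for each. Of 19 tested Wnt receptor and target genes 11 lay above 0 (median 0.15). The transcription factor genes Lef1 and Tcf7l2 had log2 fold changes of 0.06 and 0.89, the receptor gene Fzd4 1.14 and the feedback inhibitor gene Nkd1 0.83.

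The families of the matrix and enzyme members likewise had 0 genes past the edgeR threshold, and p before adjustment was under 0.05 for 1 higher and 3 lower genes. The median log2 fold change was -0.02 for 14 collagen and collagen-processing genes and -0.66 for 6 other small leucine-rich proteoglycans. Serpinh1, the collagen chaperone HSP47, lay at 297.1 ± 168.6 CPM in sgNr2f2 and 106.1 ± 21.1 CPM in sgRosa and did not pass (log2 fold change 1.49, SE 0.50, adjusted p = 0.868). P4ha2, Plod1 and P4ha1, which modify procollagen, had 1.42, 0.20 and 0.10. The proteoglycan genes Ecm2, Prelp and Bgn had -0.25, -0.93 and -0.39, and Ogn had -2.18. For 8 glutathione peroxidase and oxidative folding genes the median was -0.39. Gpx7, the nearest relative of Gpx8, lay at 5.46 ± 1.93 and 7.40 ± 5.14 CPM, while Gpx1, P4hb and Gpx4 had log2 fold changes of -0.00311, -0.03 and -0.36. Gpx3 had -3.59, with 336.6 CPM in sgRosa replicate 4 and at most 16.5 CPM elsewhere. Of the GABA and taurine transporters, the taurine transporter gene Slc6a6 had 0.23 and Slc6a11 had -0.98, and Slc6a12, the nearest relative of Slc6a13, had 3 counts in 1 library.

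**Figure D5:**
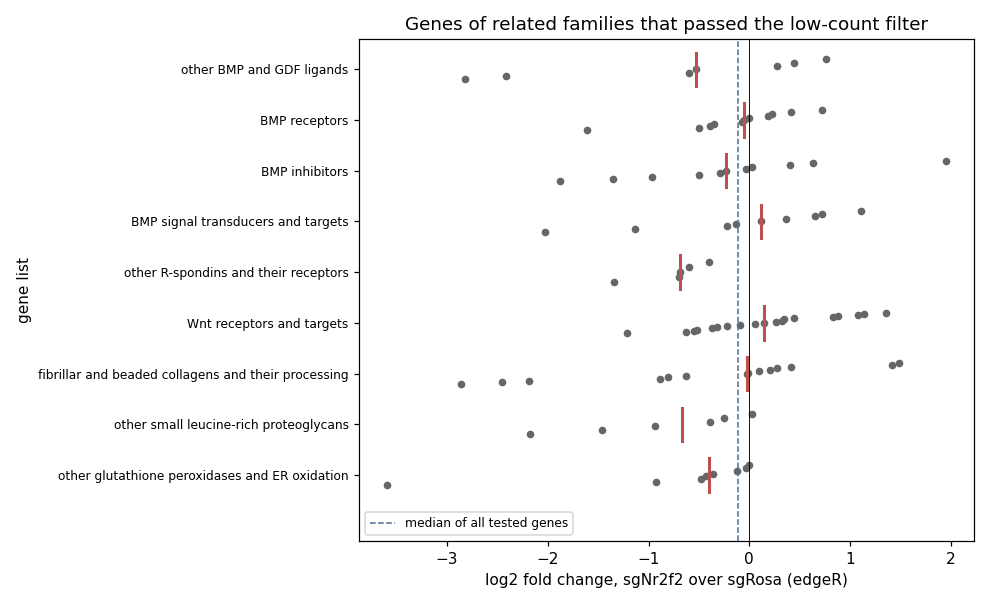
Log2 fold changes (sgNr2f2 over sgRosa, edgeR) of the genes in each of 9 families that passed the low-count filter, 1 point per gene. Red bars are list medians, which run from -0.69 to 0.15, and the dashed line is the median of all tested genes at -0.11. 0 of the genes passed the adjusted threshold.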

How the data were processed

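For 7 RNA-seq libraries the authors deposited whole-number read counts for each gene symbol, not normalized, as 1 table and as 7 single files with equal values. The submitters' processing notes name STAR 2.7.5c, featureCounts 2.0.1, fastp 0.23.2, FastQC 0.11.9, MultiQC 1.11 and edgeR 3.42.4 and the build mm10. No source used here names the annotation or the strand setting, so reads of overlapping genes cannot be told apart. Libraries were made from 5 ng of RNA, per the labels' protocols, with no molecular identifiers named, so intervals and floors cover counting error only.

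Counts were fitted with edgeR 4.0.16 (R 4.3.3): quasi-likelihood F test, TMM factors, filterByExpr (14412 genes kept), group as the only term, Benjamini-Hochberg adjustment over all kept genes. DESeq2 1.42.0, limma-voom 3.58.1, other scalings, no filter, a replicate block and leaving out each library were alternatives. Scripts were tested on simulated data. Standard errors are the log2 fold change over the square root of F. The members and lists were chosen with earlier results of these data known. Named are the members, Nr2f2, close relatives, the up to 4 highest genes of each family list (1 is not reported here), leading or absent markers, and the 5 genes most like 4 members. Other names, Bmpr1b, Nog, Chrd, Smad6 and Id2 among them, were chosen after their values were seen. Positions are from RefSeq (GRCm38.p6), which matched 32501 symbols (90.3%).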

Additional observations from a re-analysis of the deposited data

Results flagged for a closer look

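In 4 of the 10 genes, 1 of the 4 sgRosa libraries lay far from the other 3, by Dixon's ratio of the gap to the nearest library over the whole range. The ratio was 0.887 for Bmp5, 0.934 for Gpx8, 0.869 for Cped1 and 0.908 for Tspan8, each above Dixon's 95% critical value for 4 samples. The library apart was sgRosa replicate 2 in each, at 7.35, 12.7, 5.52 and 5.41 CPM, and so it was for the sum of the 10 genes, at a ratio of 0.96. Replicate 2 also stood apart for the meningeal genes Gjb2 (0.881), Slc47a1 (0.901), Cdh1 (0.945) and Mgp (0.846), for Ttr (0.934), and for the summed fibroblast markers without Slc22a8 (0.882) and choroid plexus markers (0.909). sgRosa replicate 4 stood apart for Gpx3 (0.967), for Smad6 at 0 CPM (0.897) and for the summed ependymal (0.875), astrocyte (0.867) and erythroid markers (0.934), and sgRosa replicate 1 for Id3 (0.905). Of 46 values checked 18 passed. Chance gives such a ratio in about 1 of 20 groups of normally distributed values. The values here are CPM, often of low counts, and some genes were named after their values were seen, so no excess is read. These values share their libraries, and the members were chosen partly for this pattern.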

How the results depend on the processing

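edgeR called 0 genes under TMM, under 3 other scalings, without the filter, with the replicate block and in each of the 7 fits without 1 library (lowest and highest 0), and limma-voom called 0. DESeq2 called 7, of which 4 of the 5 lower ones were members (Tspan8, Gpx8, Cyp2f2 and Bmp5), which were chosen from this contrast. Of 113 member values under the alternatives, 113 were below 0, 101 moved by less than the spread between libraries and 12 by more. Nothing is read from the shared sign, because this contrast chose the genes. The fit without sgRosa replicate 2 gave no value for Bmp5, Cyp2f2, Cped1, Tspan8, Lum or Slc6a13, which the low-count filter removed there. Other fits without 1 sgRosa library lacked values for these genes too. Bmp5 had a value only without sgRosa replicate 4, and Cyp2f2, Tspan8 and Slc6a13 only without sgRosa replicate 3. Cped1 and Lum had none in any of these fits. With the replicate block unadjusted p-values under 0.05 numbered 496 for higher and 417 for lower genes, against 314 and 407 without it. The deviations of libraries with the same number correlated at -0.201, -0.262 and 0.0897, so the numbers give no pairing. Scaling by library totals alone gave 127 higher and 618 lower. Of 294 list medians, 22 moved by more than the spread. Without sgRosa replicate 2 the median of the choroid plexus markers was 2.25, against -0.11 with it, and the medians of the R-spondin and proteoglycan lists were -0.45 and -0.28. At the depth of sgRosa replicate 4, 3 counts are worth 0.408 CPM, so levels under that cannot be told from 0.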
